A study of Mus musculus with 8 samples.

Results

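The fibroblast growth factor (FGF) genes described here are 10 genes of FGF signalling in bone, 6 ligands (Fgf2, Fgf7, Fgf10, Fgf18, Fgf21 and Fgf23) and 4 receptors (Fgfr1, Fgfr2, Fgfr3 and Fgfr4), chosen by name out of 21631 protein-coding genes on the 19 autosomes and the X chromosome. Chromatin immunoprecipitation sequencing mapped H3K4me2, H3K4me3 and H3K27me3 in Asxl1-/- and in wild-type mesenchymal stem/progenitor cells (MSPCs), and the chromatin regulator ASXL1 in wild-type MSPCs alone. The MSPCs of both genotypes came from marrow of C57BL/6 mice, were cultured in MesenCult medium and had been passaged 5 to 10 times. The study compared the genotypes in order to ask what loss of Asxl1 does to the chromatin of stromal cells. Each of the 7 analysed libraries stands alone, 1 per target and genotype, and without replicates no difference between genotypes was tested. The labels do not say which part of Asxl1 is deleted or how many animals gave cells, and no ASXL1 library of Asxl1-/- cells was analysed here to check the deletion. An input library without immunoprecipitation was not analysed here.

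FGF ligands bind receptor tyrosine kinases together with heparan sulphate, and the receptors signal through the adaptor FRS2 to the RAS and MAPK cascade and through phospholipase C gamma. Most ligands act on neighbouring cells, whereas FGF21 and FGF23 are hormones that need a klotho protein as co-receptor. In the skeleton, FGFR1, FGFR2 and FGFR3 control the growth of bone and cartilage cells, and activating changes in them cause dwarfism or early closure of skull sutures. H3K4me3 marks active or poised gene starts, H3K4me2 marks starts and enhancers, and H3K27me3 is the mark of Polycomb repression. ASXL1 is a partner of the deubiquitinase BAP1, which acts on the other Polycomb mark, ubiquitinated histone H2A.

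The deposited lists give islands, stretches of enriched 200 bp windows, without read counts. Sequencing depth is therefore unknown, and a missing island may be a signal just under the caller's limit. A gene was called marked when an island lay within 1000 bp of its start, and its locus is the gene with 20 kb on either side. The lists hold from 15276 to 36048 islands each. The median H3K4me3 island was 4200 bp in Asxl1-/- and 3400 bp in wild type, so widths of that mark differ genome-wide. Covered length also differed by whole chromosomes: on chromosome 3, which holds Fgf2, Asxl1-/- covered 0.532 of the wild-type length for H3K4me2, 0.7 for H3K4me3 and 0.222 for H3K27me3, and on chromosome 13, which holds Fgf10 and Fgfr4, the ratios were 0.616, 0.793 and 0.491. On chromosome 11, which holds Fgf18, they were 1.13, 1.28 and 1.5. The X chromosome, which holds none of the 10 genes, stood apart with an H3K27me3 ratio of 11.7. Of 12 stromal and pericyte genes used to check the cell label, 10 in Asxl1-/- and 11 in wild type had H3K4me3 at the start, Eng being lost in Asxl1-/-. Among all protein-coding genes 58.8% had it in Asxl1-/- and 59.3% in wild type. Lepr had H3K4me3 at the start in neither genotype and H3K27me3 in both. H3K27me3 was also at Thy1 in Asxl1-/- alone and at Cxcl12 in wild type alone. Of 6 blood cell genes, H3K4me3 was at the start of 2 in Asxl1-/-, Cd68 and Spi1, and 3 in wild type, the same 2 and Cd34. Spi1 also had H3K27me3 at the start in both genotypes. Ptprc, Itgam and Csf1r had no H3K4me3 at the start in either genotype. Of 4 endothelial genes 1 had H3K4me3 and 2 had H3K27me3 at the start in each genotype.

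Sequence before the gene start is shown for 5 members whose starts carried unlike marks: Fgf7 with the widest H3K4me3 island, Fgf10 with H3K27me3 in wild type alone, Fgf23 with H3K27me3 as its one mark, Fgfr2 with H3K4me3 at a start poor in CpG, and Fgfr3 with all 3 marks. Each line gives the 250 bases before the start in RefSeq's GRCm38.p6, 5′ to 3′ on the strand of the gene, with CpG dinucleotides in capitals. The windows are chr2:126034408-126034657 (plus strand) for Fgf7, chr13:118714449-118714698 (plus) for Fgf10, chr6:127072652-127072901 (plus) for Fgf23, chr7:130266809-130267058 (minus) for Fgfr2 and chr5:33721474-33721723 (plus) for the first of the 2 listed starts of Fgfr3.
Fgf7: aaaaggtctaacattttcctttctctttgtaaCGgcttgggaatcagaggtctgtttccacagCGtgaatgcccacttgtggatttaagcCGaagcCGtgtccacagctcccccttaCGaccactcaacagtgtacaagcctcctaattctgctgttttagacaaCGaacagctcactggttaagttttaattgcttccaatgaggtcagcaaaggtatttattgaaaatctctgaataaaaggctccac
Fgf10: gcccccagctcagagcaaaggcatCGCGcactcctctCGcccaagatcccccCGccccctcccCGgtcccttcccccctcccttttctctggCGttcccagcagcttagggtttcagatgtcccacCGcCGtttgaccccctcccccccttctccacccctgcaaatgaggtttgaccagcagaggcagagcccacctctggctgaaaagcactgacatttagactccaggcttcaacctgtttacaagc
Fgf23: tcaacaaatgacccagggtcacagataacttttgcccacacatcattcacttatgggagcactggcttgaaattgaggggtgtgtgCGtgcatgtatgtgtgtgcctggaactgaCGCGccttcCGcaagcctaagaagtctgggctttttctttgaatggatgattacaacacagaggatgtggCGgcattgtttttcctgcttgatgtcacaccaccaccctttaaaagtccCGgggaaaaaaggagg
Fgfr2: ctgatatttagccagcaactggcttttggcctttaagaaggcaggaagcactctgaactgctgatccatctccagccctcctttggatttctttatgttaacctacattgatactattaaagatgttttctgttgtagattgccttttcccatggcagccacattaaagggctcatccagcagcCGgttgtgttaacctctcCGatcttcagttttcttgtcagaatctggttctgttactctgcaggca
Fgfr3: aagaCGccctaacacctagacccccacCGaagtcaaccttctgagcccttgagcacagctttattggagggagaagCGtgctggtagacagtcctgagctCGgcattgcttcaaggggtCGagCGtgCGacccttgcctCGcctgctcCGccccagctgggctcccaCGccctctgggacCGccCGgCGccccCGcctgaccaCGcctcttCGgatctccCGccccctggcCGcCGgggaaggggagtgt

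The capitals differ in number between these starts. The Fgfr3 window holds 19 CpG, Fgf10 holds 8, Fgf7 and Fgf23 hold 6 each, and Fgfr2 holds 2. Relative to the number that the C and G content would give, the ratio was 0.694 for Fgfr3, 0.512 for Fgf7, 0.412 for Fgf23, 0.401 for Fgf10 and 0.167 for Fgfr2. Among the starts not printed, the ratio was 1.02 at Fgf18, 0.858 at Fgf2, 0.607 at Fgfr4 and 0.414 at Fgf21. Over all 21045 windows of protein-coding genes the median was 0.537. Genes with H3K4me3 and no H3K27me3 at the start had a median of 0.755 in Asxl1-/- and 0.756 in wild type. Genes with H3K27me3 and neither H3K4 mark had 0.217 in Asxl1-/- and 0.238 in wild type. Genes with H3K4me3 and H3K27me3 had 0.67 in Asxl1-/- and 0.682 in wild type. Fgf7, Fgf10 and Fgfr2 carried H3K4me3 in both genotypes at ratios below the medians of genes so marked, with or without H3K27me3. Fgfr3, at 0.694 before its first listed start, was below the medians without H3K27me3 and above those with both marks, which it carried. Before its second listed start the ratio was 0.758, above the medians of both groups. For Fgfr2, 19.3% of all windows were at or below its ratio. Among the 115 genes with a wild-type H3K4me3 island at least as wide as that of Fgf7, the median was 0.742 and 25 were at or below Fgf7, itself included.

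The GC box GGGCGG was searched on both strands and shares its CG with the capitals above. It occurred 3 times before Fgf21 and the first listed start of Fgfr3. It occurred 2 times before Fgfr4 and the second listed start of Fgfr3, and 1 time before Fgf2, Fgf10 and Fgf18. It was not found before Fgf7, Fgf23 or Fgfr2, and 43.1% of all windows hold it. The letters TATAAA, searched on both strands, occurred before Fgf21 alone among the members with a listed start, and 11.7% of all windows hold them.

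**Figure D1:**
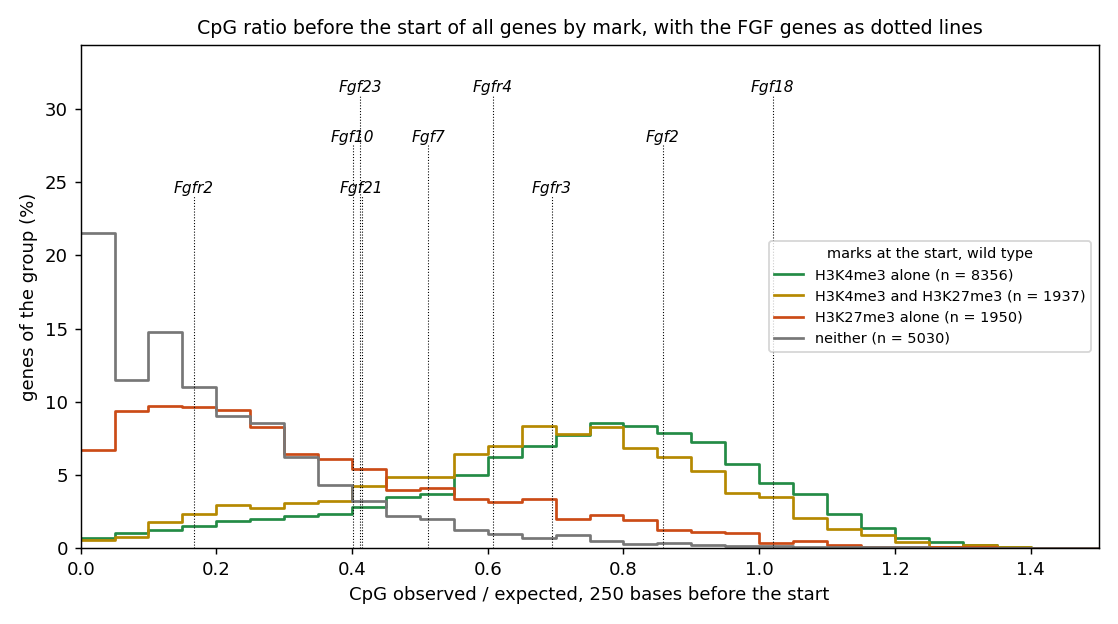
CpG observed over expected in the 250 bases before the start (x axis) against the share of genes in percent (y axis), for all genes with a listed start grouped by wild-type marks at the start; the last bin also holds higher ratios. Dotted lines mark 9 FGF genes, from 0.167 at Fgfr2 to 1.02 at Fgf18, each at its first listed start.

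H3K4me3 stood at the start of the same 7 FGF genes in both genotypes: Fgf2, Fgf7, Fgf10, Fgf18, Fgfr1, Fgfr2 and Fgfr3. Among all protein-coding genes 58.8% had it in Asxl1-/- and 59.3% in wild type. All 7 were kept, as were 95.9% of all genes marked in wild type, where 4.14% lost it. None of the other 3 gained it, beside 4.66% of unmarked genes. H3K4me2 was at 9 starts in Asxl1-/- (64.6% of all genes) and 8 in wild type (63.6%), and the 1 gain, at Fgfr4, compares with 7.65% of genes that lacked it in wild type. All 8 wild-type starts kept it, as did 97.3% of all marked genes, and 2.67% lost it. H3K27me3 was at 4 starts in Asxl1-/- (22.4% of all genes), those of Fgf21, Fgf23, Fgfr3 and Fgfr4, and at 5 in wild type (24.0%), the same 4 and Fgf10. It was kept at 4 of 5, beside 74.4% of all marked genes, and lost at 1 of 5, beside 25.6%. It was gained at 0 of 5, beside 6.04% of unmarked genes. With 10 genes and 1 library each, no count was tested against its genome-wide share.

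**Figure D2:**
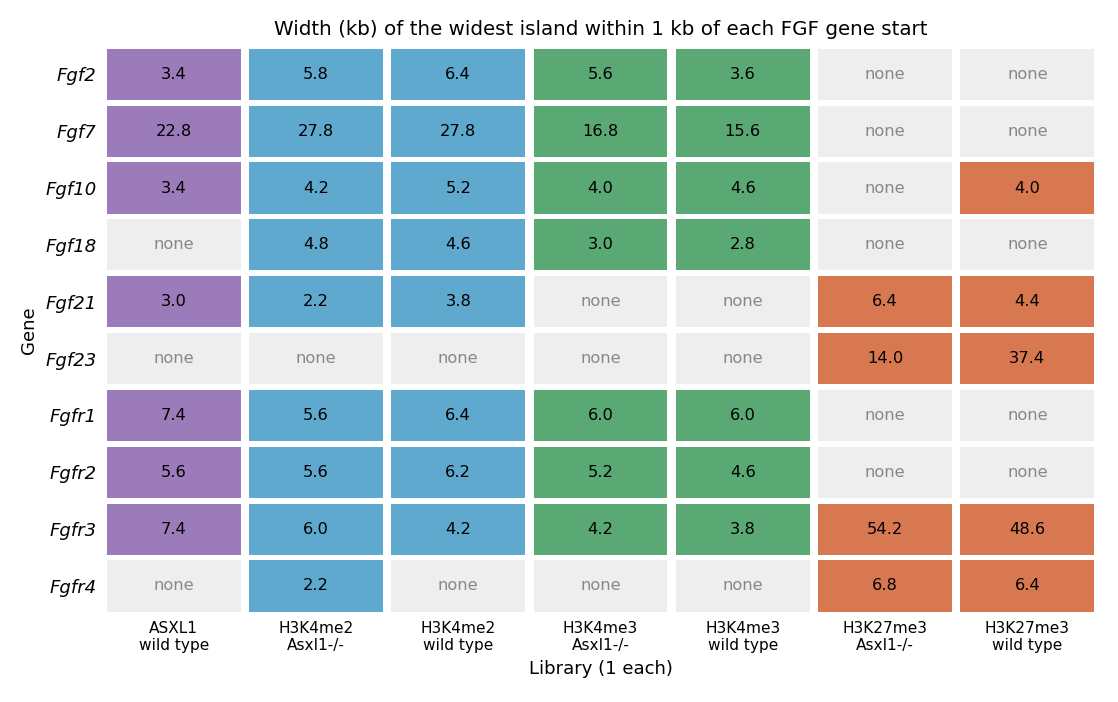
Width in kb of the widest island within 1 kb of the start of each FGF gene (rows) in each of the 7 libraries (columns); grey cells had no island. For Fgfr1 either end of the gene was used. Coloured cells show H3K4me3 at 7 genes in both genotypes, and H3K27me3 at 4 in Asxl1-/- and 5 in wild type.

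Fgf2, or basic FGF, is a mitogen of mesenchymal and bone progenitor cells, and its gene lies on chromosome 3 from 37348477 to 37410106. Its start carried an H3K4me3 island of 5.6 kb in Asxl1-/- and 3.6 kb in wild type, an H3K4me2 island of 5.8 kb in Asxl1-/- and 6.4 kb in wild type, and an ASXL1 island of 3.4 kb. No H3K27me3 island touched the locus in either genotype. The start stayed marked in both genotypes, and the difference lay in H3K4me2 further along. Over the locus H3K4me2 covered 19.8 kb in 6 islands in Asxl1-/-, against 31.4 kb in 10 islands in wild type. The 4 wild-type islands with no counterpart were 0.8 to 2.0 kb wide and lay between 15.7 and 66.5 kb from the start. The locus ratio of 0.642, with 1000 bp added to both lengths, is above the chromosome's 0.532. H3K4me3 over the locus went the other way from its chromosome, at 11.6 kb in Asxl1-/- and 9.4 kb in wild type. Those lengths include an island of 6.0 kb in Asxl1-/- and 5.8 kb in wild type over the starts of Nudt6, which overlaps the far end of Fgf2, and Spata5, which lies beyond it. The start island also lies over the antisense gene Fgf2os, whose listed start is at 37349841.

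Fgf7, the keratinocyte growth factor that mesenchyme makes for epithelia, had the widest start islands of the group in ASXL1, H3K4me2 and H3K4me3. The gene spans 126034658 to 126091185 on chromosome 2. ASXL1 covered 22.8 kb in 1 island across the start, and 1.87% of all ASXL1 islands were as wide. The H3K4me2 island at the start was 27.8 kb in both genotypes with the same edges, and 0.262% of the islands of that list in Asxl1-/- and 0.155% in wild type were as wide. H3K4me3 covered 16.8 kb in Asxl1-/- (1.03% of islands as wide) and 15.6 kb in wild type (0.419%). In both genotypes the island reached far into the gene, to 14.3 kb after the start in Asxl1-/- and 11.3 kb in wild type. A further H3K4me3 island of 4.6 kb, 24.5 to 29.1 kb into the gene, was called in wild type alone, and one of 1.6 kb from 15.7 kb was called in Asxl1-/- alone. At the wild-type one, Asxl1-/- kept H3K4me2, in an island of 8.6 kb. H3K27me3 was absent over the whole locus in both genotypes. Fgf7 lies inside the annotated span of Fam227b, whose listed start at 126152004 is outside the locus.

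Fgf10, the mesenchymal ligand that drives limb and lung buds, was the 1 member that lost an H3K27me3 island at its start. The gene spans 118714699 to 118792573 on chromosome 13. In wild type H3K27me3 covered 4.0 kb, from -2.10 to 1.90 kb around the start, and in Asxl1-/- there was none over the locus. That island was narrow for its mark, since 87.4% of wild-type H3K27me3 islands were as wide or wider. Over the whole chromosome the ratio of total H3K27me3 length, Asxl1-/- over wild type, was 0.491. H3K4me3 remained at the same place, in 4.0 kb in Asxl1-/- and 4.6 kb in wild type, as did H3K4me2, in 4.2 kb in Asxl1-/- and 5.2 kb in wild type. ASXL1 covered 3.4 kb of the same start. Fgf10 thus had H3K4me2 and H3K4me3 without H3K27me3 in Asxl1-/-, as did 48.8% of all genes, and all 3 marks in wild type, as did 12.2%.

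Fgf18 acts on chondrocytes and osteoblasts, and its gene runs on the minus strand of chromosome 11 from 33147400 down to 33116970. Its start had H3K4me3, 3.0 kb in Asxl1-/- and 2.8 kb in wild type, and H3K4me2, 4.8 kb in Asxl1-/- and 4.6 kb in wild type. ASXL1 had no island there. In wild type 82.4% of genes with H3K4me3 at the start had ASXL1 as well, and Fgf18 was the 1 of the 7 without it. H3K27me3 did not reach the start in either genotype but was wider around it in Asxl1-/-. It covered 28.2 kb of the locus in 3 islands in Asxl1-/-, against 10.4 kb in 2 islands in wild type. An island of 7.8 kb inside the gene, beginning 8.20 kb after the start, was called in Asxl1-/- alone. The other H3K27me3 islands flanked the gene in both genotypes. Chromosome 11 as a whole had an H3K27me3 ratio of 1.5. The log2 ratio over the locus was 1.36 as deposited and 0.80 after dividing the Asxl1-/- length by the chromosome's ratio, which is under 2-fold. H3K4me3 toward the far end of the gene, 1.6 kb wide at 23.4 kb after the start, was called in wild type alone, where Asxl1-/- kept H3K4me2 of 1.8 kb. Npm1, a housekeeping gene for a nucleolar protein, lies upstream from 33152498 to 33164142. The ASXL1 island of the locus, 3.2 kb wide, lay over the Npm1 end of higher coordinate, and each genotype had an H3K4me2 and an H3K4me3 island there or within 1000 bp of that end.

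Fgf21 is the fasting hormone made chiefly in liver. It is a gene of 1.6 kb on the minus strand of chromosome 7, from 45615490 down to 45613890, and it had H3K4me2 but no H3K4me3 at its start in either genotype. The H3K4me2 island was 2.2 kb in Asxl1-/- and 3.8 kb in wild type and ASXL1 covered 3.0 kb. ASXL1 without H3K4me3 at the start is uncommon, at 2.65% of genes that lacked H3K4me3. The H3K27me3 island covered the start in Asxl1-/-, from -6.11 to 0.289 kb, and stopped short of it in wild type, from -5.31 to -0.911 kb. With a start window of 500 bp Fgf21 therefore counts as a gain of H3K27me3. Over the locus H3K27me3 covered 11 kb in 3 islands in Asxl1-/- and 4.4 kb in 1 island in wild type, on a chromosome whose ratio was 0.736. The start of Fut1, a fucosyltransferase gene, lies at 45617606 under the H3K27me3 islands at the Fgf21 start in both genotypes, the ASXL1 island and the wild-type H3K4me2 island, so these cannot be assigned to either gene. H3K4me3 of 1.6 kb at the start of the neighbour Rasip1 was called in wild type alone.

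Fgf23 is the phosphate hormone of osteocytes, and its gene lies on chromosome 6 from 127072902 to 127082296. H3K27me3 was the only one of the 3 marks at its start and covered all of the gene in both genotypes. The island was 14.0 kb in Asxl1-/- and 37.4 kb in wild type, and both ended at the same place, 11.5 kb after the start. The difference was upstream, where the Asxl1-/- island began at -2.50 kb and the wild-type one at -25.9 kb. Asxl1-/- islands covered 19.8 kb of the wild-type one (52.9%), more than the 14.0 kb at the start. The domain in Asxl1-/- was thus interrupted within the locus, with H3K27me3 again beyond its upstream edge. On this chromosome the H3K27me3 ratio was 0.996. Inside the gene, in its later part, a small site carried H3K4me3 under the H3K27me3 domain. It ran from 6.70 to 9.10 kb after the start in Asxl1-/- and from 5.90 to 8.10 kb in wild type, and H3K4me2 of 2.2 kb was there in both genotypes. An ASXL1 island of 1.8 kb lay on the same site. A second ASXL1 island, of 6.2 kb, lay upstream from -19.1 to -12.9 kb with H3K4me2 of 2.8 kb in each genotype, and the H3K27me3 domain reached over it in wild type but not in Asxl1-/-.

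**Figure D3:**
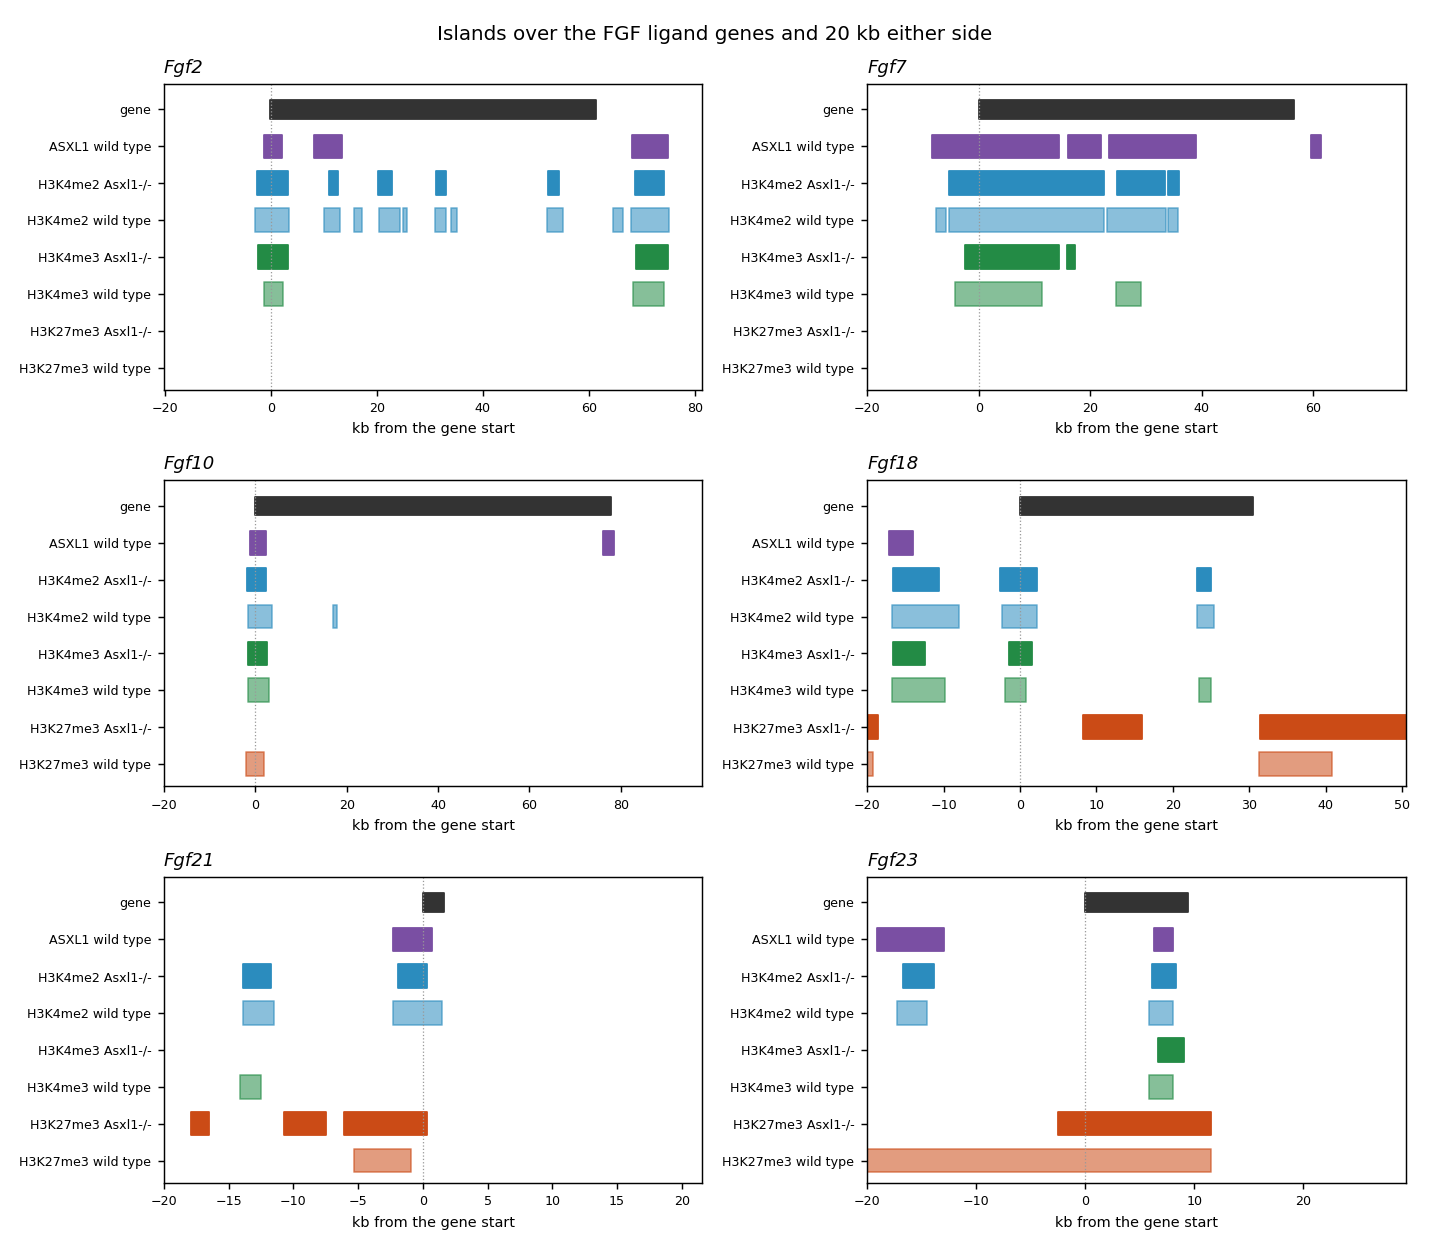
Islands over the 6 FGF ligand genes, with distance in kb from the gene start along the direction of transcription on the x axis and 1 row per library; the black bar is the gene and the dotted line its start. Islands are drawn up to the edge of the locus. The blue, green and purple blocks at Fgf7 are the widest of the set, and orange H3K27me3 blocks are absent from Fgf2 and Fgf7.

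Fgfr1, the main receptor of stromal and early bone cells, had the most ASXL1 islands over its locus of any member, but some lay at a neighbour. It lies on chromosome 8 from 25518759 to 25575718. No start was listed for it in the tables used here, so both ends were examined. Its H3K4me3 islands lay within the 26.6 kb next to the end of lower coordinate, and across that end. The island at the end was 6.0 kb in both genotypes and H3K4me2 was 5.6 kb in Asxl1-/- and 6.4 kb in wild type. Further H3K4me3 islands inside the gene were 3.8 kb and 2.6 kb in Asxl1-/-, and 4.2 kb and 2.6 kb in wild type, at the same 2 places. ASXL1 formed 7 islands over the locus, which covered 42.9 kb in all and 54.7% of the gene. Of these, 2 lay over the ends of the neighbour Letm2 (25578478 to 25597989), 1 of them also over the Fgfr1 end of higher coordinate. Another, of 1.2 kb, lay inside Letm2. The islands at Letm2 cannot be assigned to Fgfr1. For comparison, Fgf7 had 4 ASXL1 islands over its locus, which covered 46.2 kb. An ASXL1 island of 9.0 kb inside the gene and one of 7.0 kb at the end of higher coordinate touched none of the 3 marks in wild type, although 95.3% of all ASXL1 islands touched H3K4me2. The 9.0 kb island covers the non-coding RNA gene Gm16159 (25548673 to 25556083). Another, Gm31288 (25519688 to 25545775), overlaps the H3K4me3 islands inside Fgfr1. These islands cannot be assigned to Fgfr1 alone. H3K27me3 was called in wild type alone, in 2.2 kb beyond the end of lower coordinate, and not at the gene.

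Fgfr2, a receptor whose splice forms serve mesenchyme and epithelium, kept its marks at the start. The gene runs on the minus strand of chromosome 7 from 130266808 down to 130162451. H3K4me3 covered 5.2 kb in Asxl1-/- and 4.6 kb in wild type, H3K4me2 covered 5.6 kb in Asxl1-/- and 6.2 kb in wild type, and ASXL1 covered 5.6 kb. These islands lay almost wholly after the listed start, the H3K4me3 ones from -0.592 to 4.61 kb in Asxl1-/- and from -0.192 to 4.41 kb in wild type, and the window printed above is the CpG-poor sequence before it. A site beginning 50.2 kb into the gene had H3K4me2 (2.6 kb), H3K4me3 (1.0 kb) and ASXL1 (3.4 kb) in wild type, and neither H3K4 mark in Asxl1-/-. Of the other 4 H3K4me2 islands of the locus, each was present in both genotypes, at 0.8 to 2.4 kb in Asxl1-/- and 1.2 to 2.6 kb in wild type. No H3K27me3 island touched the locus in either genotype.

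Fgfr3, the receptor that restrains growth plate cartilage, carried all 3 marks and ASXL1 at its start. It lies on chromosome 5 from 33721724 to 33737068. H3K27me3 formed a domain of 54.2 kb in Asxl1-/- and 48.6 kb in wild type, widths that 1.32% of H3K27me3 islands reached in Asxl1-/- and 2.09% in wild type. H3K4me3 of 4.2 kb in Asxl1-/- and 3.8 kb in wild type lay inside that domain, with H3K4me2 of 6.0 kb in Asxl1-/- and 4.2 kb in wild type and ASXL1 of 7.4 kb. All of the wild-type H3K27me3, H3K4me2 and H3K4me3 islands were covered in Asxl1-/- as well. Fgfr3 was the 1 FGF member with H3K4me3 and H3K27me3 at the start in Asxl1-/-, where 9.85% of all genes had both, and 1 of 2 with Fgf10 in wild type, where 12.2% did.

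Fgfr4, the receptor best known for its role in liver, was covered by H3K27me3 at its start in both genotypes, with 6.8 kb in Asxl1-/- and 6.4 kb in wild type. The gene lies on chromosome 13 from 55152818 to 55168759. There the H3K27me3 length over the locus was 1.05 times wild type while the whole chromosome stood at 0.491. H3K4me2 of 2.2 kb, from -1.02 to 1.18 kb around the start, was called in Asxl1-/- alone. This gave the start H3K4me2 and H3K27me3 without H3K4me3 in Asxl1-/-, as in 4.05% of all genes, and H3K27me3 alone in wild type, as in 9.15%. Beyond the far end of the gene, H3K4me3 islands of 1.4 and 1.0 kb were called in wild type and none in Asxl1-/-. H3K4me2 was present at both places in both genotypes, with 1.4 and 2.0 kb in Asxl1-/-, against 2.6 and 2.8 kb in wild type. The ASXL1 island of the locus, 5.8 kb wide, lay over the farther of them.

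**Figure D4:**
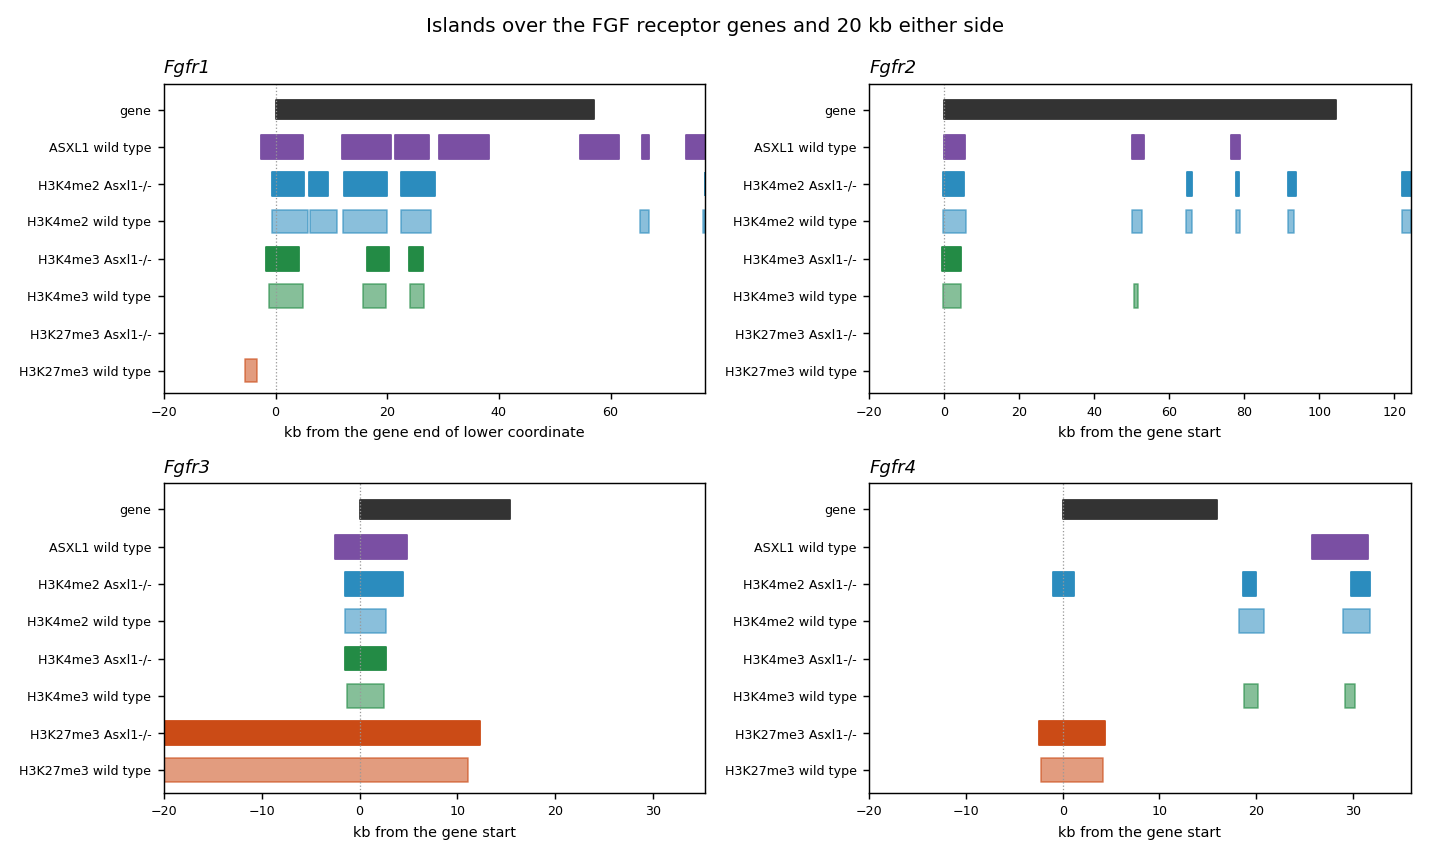
Islands over the 4 FGF receptor genes, drawn as for the ligands, with distance in kb from the gene start on the x axis; for Fgfr1 distance is from its end of lower coordinate. An H3K27me3 domain runs past the upstream edge of the Fgfr3 locus and ends inside the gene in both genotypes. It covers 80.0% of Fgfr3 in Asxl1-/- and 72.2% in wild type. The H3K4me2 block at the start of Fgfr4 is present in Asxl1-/- only.

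Measured over each locus, H3K4me2 length was lower in Asxl1-/- at 7 genes, higher at 2 and equal at Fgf23. The median difference of Asxl1-/- minus wild type was -2.40 kb, beside -0.400 kb over all 16991 genes with any. Dividing the Asxl1-/- lengths by the ratio of the chromosome turned the median of the FGF loci to 1.29 kb. With 1000 bp added to both lengths, no member reached a 2-fold change in H3K4me2, a size that 6.15% of those genes passed downward and 5.19% upward. H3K4me3 was lower at 7 genes and higher at 3, with a median difference of -0.500 kb, beside 0.600 kb over 15717 genes. The 2 members past 2-fold were Fgf21, with 0 kb in Asxl1-/- and 1.6 kb in wild type, and Fgfr4, with 0 kb in Asxl1-/- and 2.4 kb in wild type. Genome-wide 4.19% of genes were that much lower in H3K4me3 and 4.35% higher. In both cases the islands lay outside the FGF gene. H3K27me3 was present at 7 loci. It was lower by 2-fold or more at Fgf10, Fgf23 and Fgfr1, where 25.3% of all genes with any were, and higher at Fgf18 and Fgf21, where 22.3% were. Fgf18 was no longer past 2-fold after the division by the chromosome's ratio, and Fgfr4, on chromosome 13, then was, at a log2 ratio of 1.00, against 0.08 as deposited. With flanks of 50 kb Fgf23 was no longer past 2-fold, at a log2 ratio of -0.79, against -1.12 with 20 kb. The median difference in H3K27me3 was 0.400 kb, beside -0.800 kb over 12069 genes. Changes of 2-fold or more in H3K27me3 were common genome-wide and went both ways.

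**Figure D5:**
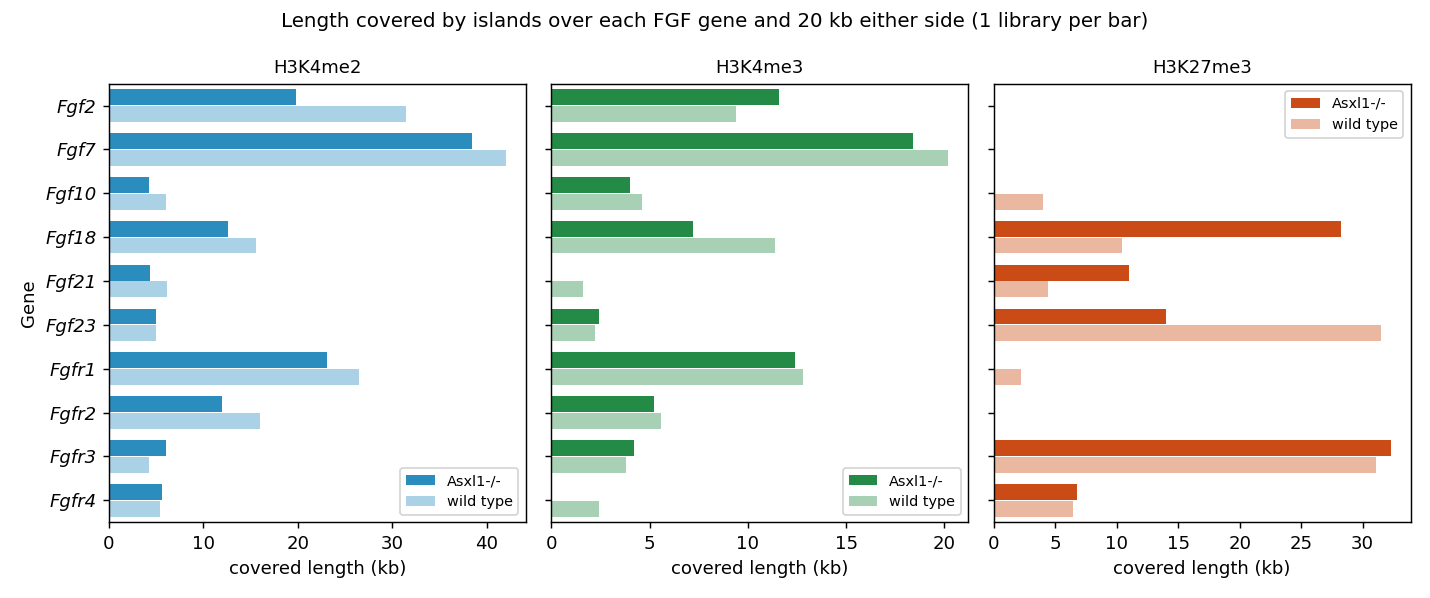
Length in kb covered by islands over each FGF gene and 20 kb either side, with Asxl1-/- (dark bars) above wild type (pale bars), 1 library per bar and 1 panel per mark. Fgf7 has the longest bars in H3K4me2 and H3K4me3, and in H3K27me3 Fgf18 and Fgf21 are longer in Asxl1-/- while Fgf10, Fgf23 and Fgfr1 are shorter.

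At most marked starts, widths of the H3K4 marks differed in the direction most common genome-wide. For H3K27me3, compared at 4 genes only, most went the other way. The H3K4me3 island was wider in Asxl1-/- at 5 of the 7 marked members, equal at Fgfr1 and narrower at Fgf10, and of all genes with it in both genotypes 62.3% had it wider in Asxl1-/-. H3K4me2 was narrower in Asxl1-/- at 5 of 8, as in 53.7% of all such genes. H3K27me3 was wider in Asxl1-/- at 3 of 4 and narrower at Fgf23, where 40.8% of all such genes had it wider and 57.4% narrower. At Fgfr4 the widths were only 6.8 kb in Asxl1-/- and 6.4 kb in wild type. With 4 genes and 1 library each, a departure from the genome-wide shares was not tested. Away from the start of any protein-coding gene, 18 H3K4me2 islands in Asxl1-/- and 26 in wild type lay within the loci. All 18 overlapped a wild-type island, as did 68.1% of such islands genome-wide, and 18 of the 26 overlapped an Asxl1-/- island, as did 59.3%. Of these islands 15 in Asxl1-/- and 18 in wild type touched no H3K4me3, and 6 of each set touched ASXL1. The genome-wide shares for these counts were not computed, so they do not set the FGF loci apart. H3K4me3 islands away from starts numbered 4 in Asxl1-/- and 8 in wild type. Of the 8, at Fgf7, Fgf18, Fgf23, Fgfr1, Fgfr2 and Fgfr4, 5 had no counterpart in Asxl1-/-, and 4 of those 5 still had H3K4me2 there. Genome-wide 51.0% of such wild-type islands had a counterpart, and of those without one 73.0% had H3K4me2 in Asxl1-/-. With 8 islands the FGF counts are near those shares.

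An ASXL1 island lay within the locus of all 10 genes, as for 64.5% of all protein-coding genes, and within 1000 bp of the start of 7, as for 50%. The 3 without it at the start were Fgf18, Fgf23 and Fgfr4. In wild type, ASXL1 with both H3K4 marks and no H3K27me3 was found at the starts of Fgf2, Fgf7, Fgfr1 and Fgfr2, a state that 43.3% of all genes shared. Of 25 ASXL1 islands over the loci, 21 touched H3K4me2, 15 touched H3K4me3 and 5 touched H3K27me3. Across the whole ASXL1 list those shares were 95.3%, 71.8% and 9.06%. The 4 that touched no mark lay at Fgf7, at the far end of Fgf10 and at Fgfr1, which had 2. Of the 2 at Fgfr1, 1 was also over an end of Letm2 and the other over Gm16159.

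The rest of the pathway was examined in 66 further genes, all found in the gene table. H3K4me3 was at 53 starts in each genotype and kept at 52. The 1 loss of 53 stands beside 4.14% of all marked genes, and the 1 gain beside 4.66% of unmarked ones. It was lost at Kl, the klotho co-receptor of FGF23, in an island of 1.8 kb in wild type, and gained in 1.8 kb in Asxl1-/- at Fgf1, for which either gene end was used. H3K27me3 was at 19 starts in Asxl1-/- and 21 in wild type and kept at 17. The 4 losses of 21 stand beside 25.6% of all marked genes and the 2 gains beside 6.04% of unmarked ones, so these changes were no more frequent than genome-wide. It was lost at Fam20c (18.0 kb in wild type), the kinase that acts on FGF23, at Klb (7.0 kb), the co-receptor of FGF21, at the syndecan gene Sdc3 (5.4 kb) and at the feedback inhibitor Spry1 (5.4 kb). It was gained at Fgf22 (7.2 kb in Asxl1-/-) and at Flrt2 (6.8 kb), which codes for a membrane protein of a family that binds FGF receptors. None of these islands overlapped an island of the other genotype. Over the chromosome that holds each gene, the H3K27me3 ratio was 0.222 for Spry1, 0.619 for Sdc3, 0.826 for Fam20c and Klb, 1.87 for Flrt2 and 2.09 for Fgf22. The part of those shifts in the 6 changes was not tested.

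By layer of the pathway, the counts below are given without a test. Over all genes in wild type, H3K4me3 was at 59.3% of starts, H3K27me3 at 24.0% and ASXL1 at 50%, and 43.3% had both H3K4 marks and ASXL1 without H3K27me3. All 18 genes of signal transduction, from Frs2 to Mapk3, had H3K4me2, H3K4me3 and ASXL1 at the start and no H3K27me3 in either genotype. The 6 transcription factor genes, Etv1, Etv4, Etv5, Egr1, Fos and Myc, had the same pattern. So did 9 of the 10 feedback inhibitors, with H3K27me3 at Spry1 in wild type as the exception. The 12 co-receptors and binding proteins had H3K4me3 at 9 starts in Asxl1-/- and 10 in wild type. They had H3K27me3 at 3 in Asxl1-/- and 4 in wild type, and ASXL1 at 8. The 4 regulators of Fgf23 had H3K4me3 at 2 starts in each genotype. They had H3K27me3 at 1 in Asxl1-/- and 2 in wild type, and ASXL1 at 2. The 16 other ligands had H3K27me3 at 15 starts in Asxl1-/- and 14 in wild type, H3K4me3 at 8 in Asxl1-/- and 7 in wild type, and ASXL1 at Fgf11 alone. Against these, the 6 ligands described above had H3K27me3 at 2 starts in Asxl1-/- and 3 in wild type, and ASXL1 at 4. No test was made of that difference, since the 6 were chosen for their part in bone and with results of these data known. Kl, which lost H3K4me3, had H3K27me3 of 11.2 kb in Asxl1-/- and 8.0 kb in wild type, so its start carried both marks in wild type alone.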

How the data were processed

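ASXL1 was mapped in wild-type cells, and H3K4me2, H3K4me3 and H3K27me3 in Asxl1-/- and wild-type cells, 1 library each. Per the submitters' processing notes, the authors used BWA, SICER 1.1 and the build mm10. No source used here gives the calling settings or the control. Each deposited list holds island starts and ends on a 200 bp grid and no read count, score or p-value. Starts were read as 0-based and are given 1-based.

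Gene spans came from a RefSeq table of GRCm38.p6, which has the coordinates of mm10. Starts came from a RefSeq promoter table for 17274 of 21631 protein-coding genes, and either end was used for the other 4357. That includes Fgfr1. Exons and UTRs were not used here. An island overlapping the start window of 1000 bp on each side by 1 bp counted as present. Kept, lost and gained mean present in both genotypes, in wild type alone and in Asxl1-/- alone. Ratios of covered length had 1000 bp added to both genotypes, and 2-fold was called. With 1 library per group no test was made. Counts are set beside the same counts over all genes.

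All 10 members are described. Other genes named are neighbours within a locus, pathway genes that changed H3K4me3 or H3K27me3, and genes named beside the count of their list, which were chosen after their values were seen. Alternatives were other windows, overlaps, flanks, folds and added lengths, narrower lists and a scaling by chromosome. The members and lists were chosen with earlier results of these data known. The code that calls lost starts was run on simulated data, wild-type lists with islands removed at known genes. That run checks the code alone and cannot tell a real loss from a signal under the caller's limit. Python 3.11.15, numpy 2.4.6, pandas 2.3.3 and matplotlib 3.10.9 were used.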

Additional observations from a re-analysis of the deposited data

How the results depend on the processing

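Of 151 counts and medians recomputed under 11 alternatives, 115 stayed within 1.5 times or 0.2 kb of the value above. With a start window of 2500 bp no count moved beyond that limit, and at 500 bp, or with 400 bp of the island required inside the window, gained H3K27me3 became 1 (Fgf21). With either end of every gene used, an alternative chosen after seeing the reference tables, gained H3K4me3 became 1 (Fgf23) and genes with H3K4me3 and H3K27me3 in Asxl1-/- became 3. The setting that moved the most values was the wider 50% of each list, which drops narrow islands by construction. There, ASXL1 was at 4 starts, H3K4me3 in Asxl1-/- at 4, and H3K27me3 at 2 in Asxl1-/- and 2 in wild type. Lost H3K4me2 became 1, gained H3K4me2 0, lost H3K4me3 2 (Fgf10 and Fgfr3) and lost H3K27me3 0, and both H3K4me3 and H3K27me3 stood at 0 starts in Asxl1-/- and 1 in wild type. Covered length fell 2-fold in H3K4me2 at 2 loci, and H3K27me3 fell at 1 and rose at 1. The median differences became -1.90 kb for H3K4me2, -3.40 kb for H3K4me3 and 1.20 kb for H3K27me3, and the H3K4me3 log2 ratio of Fgfr3 reversed to -2.26.

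With the lists of a mark cut to equal number, H3K4me3 fell 2-fold at 1 locus (Fgf21) and H3K27me3 rose at 1 (Fgf18). Over the gene alone, H3K4me2 rose 2-fold at 1 gene (Fgfr4), H3K4me3 fell at 0, H3K27me3 fell at 1 (Fgf10) and rose at 1 (Fgf18), and the medians were -1.40 kb for H3K4me2 and -0.200 kb for H3K4me3. With flanks of 50 kb H3K4me3 fell at 0 loci and H3K27me3 rose at 1 (Fgf21), with medians of -3.00 kb for H3K4me2 and -1.20 kb for H3K4me3. When Asxl1-/- lengths were divided by the ratio of their chromosome, the H3K4me2 median reversed to 1.29 kb, and those of H3K4me3 and H3K27me3 became -0.153 and 7.44 kb, so the direction of H3K4me2 length over the FGF loci depends on this scaling. The loci higher in H3K27me3 by 2-fold stayed 2 in number but became Fgf21 and Fgfr4, since Fgf18 came to a log2 ratio of 0.80 and Fgfr4 to 1.00. Fgf18 also missed 2-fold with flanks of 50 kb, at 0.65. The fall in H3K27me3 at Fgf23 missed 2-fold with those flanks too, at -0.79, and over the gene alone its log2 ratio was 0. At 1.5-fold, H3K4me2 fell at 1 locus (Fgf2). No paired analysis was possible because each group holds 1 library, and no replicate could be left out. Depth is unknown, so a missing island may be a weak one.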
